A study of Rattus norvegicus with 4 samples.

Results

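Cadherins, protocadherins, catenins, claudins, other tight junction proteins, connexins and NCAM adhesion molecules were followed in a kidney tubule cell line 12 h after an oxidative injury. The genes were those whose current rat symbol belongs to one of these families (Cdh, Cdhr, Pcdh, Ncam, Ctnn, Cldn, Tjp and the connexin prefixes Gja, Gjb and Gjc) or is F11r or Ocln, with a probe well above background on at least 1 array. Of 56 such genes with a named probe (70 probes), 38 were measured, out of 6040 named genes measured in the whole data set. The 18 that were not well above background on any array were Cdh6, Cdh7, Cdh8, Cdh15, Cdh19, Cdh23, Pcdh8, Pcdhga11, Ncam2, Cldn1, Cldn5, Cldn7, Cldn16, Cldn18, Gja3, Gjb1, Gjb2 and Gjb6. Just outside this detection rule were Gja3 and Cldn5, at -3.51 and -3.65 (log2 relative to the array's 75th percentile) on the 0.009% array, and just inside it were Cdh1 at 8.85% of that percentile on the 0.003% array and Pcdhga9 at 7.79% on the control array. Of the 38 measured genes, 28 were well above background on all 4 arrays and 6 on 1 array only. Those 6 were Pcdhga9 on the control array, Pcdhgc3 on the 0.003% array, and Pcdhga5, Cldn8, Gja6 and Gjb5 on the 0.009% array.

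The cells were NRK-52E, an epithelial line from rat kidney tubules. They were grown to confluence in serum, given 1 h of H2O2 in DMEM, washed, and kept for 12 h in DMEM that held no serum. The groups were 0 (control), 0.003, 0.006 and 0.009% H2O2, with 1 culture and 1 one-colour Agilent array per dose, and the control went through the same hour without H2O2 and the same 12 h without serum. The study set out to measure gene expression across the genome after cell death was induced. With no replicates, 2-fold serves only as a cut on size, and no single dose was tested. Fewer cells of a kind and less RNA per cell cannot be told apart in such bulk RNA.

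Cadherins are calcium-dependent adhesion molecules that span the membrane and bind the same cadherin on the next cell, while catenins tie their cytoplasmic ends to actin. Claudins, occludin and JAM-A, held by zonula occludens scaffolds, seal the tight junction above and set which ions cross between cells, and connexins form gap junction channels that let small molecules pass between neighbouring cells. In the renal tubule the claudins present differ by segment, N-cadherin and Cdh6 are the main cadherins of the proximal tubule, and loss of junctions is a known feature of oxidative tubular injury.

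Each array held 43379 noncontrol spots and none was saturated. The share of probes well above background lay between 51.9 and 55.0%, and the 75th percentile of signal on an array was 180, 168, 158 and 121 from the control to 0.009%. All 4 arrays lay on 1 slide in the order of dose and were read in 1 scan, so place on the slide cannot be told apart from dose. Hmox1, a stress gene that H2O2 is known to induce, was 47.2, 70.7 and 68.4-fold higher at 0.003, 0.006 and 0.009% than in the control. Of 12 tubule markers, 9 had a probe and 5 were well above background on all 4 arrays, namely Krt8, Krt18, Krt19, Aqp1 and Cdh16. Epcam, Pax8 and Cdh6 were among those not well above background on any array.

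Signals below are given as a percent of each array's 75th percentile, from 0 to 0.009% H2O2, and differences are log2 of the dose array over the control array after that scaling. The ± value is the error the scanner software gives for the spots of both arrays, which covers the reading of the spot and not the spread between cultures. Where one side was not well above background the difference is a bound, written as "at least". The dim side is then the higher of its value and the array's lowest signal well above background, 4.20 unscaled on the control array. Pcdhga5, at 13.1 on that array, was not well above background, so such a bound is not a strict lower limit.

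The promoters of 4 genes that the results turn on are shown first, chosen after their values were seen. They are Cdhr1, the gene furthest above the control, and F11r, Pcdha4 and Pcdhb12, which were more than 2-fold below it at every dose. Ncam1, Pcdh7 and Cdh2 were also more than 2-fold below it at every dose and are not shown. No promoter was listed for Ncam1 and Cdh2. Each sequence shown is the 250 bases before the RefSeq transcription start on GRCr8, 5′ to 3′ on the gene's strand. Capitals mark matches, on either strand, to any of 8 stress-related or core promoter motifs. The matches shown do not overlap. Cdhr1 lies at chr16:12883580-12883829 on the minus strand, F11r at chr13:86405979-86406228 on the plus strand, Pcdha4 at chr18:28876919-28877168 on the plus strand and Pcdhb12 at chr18:29413506-29413755 on the plus strand.
Cdhr1: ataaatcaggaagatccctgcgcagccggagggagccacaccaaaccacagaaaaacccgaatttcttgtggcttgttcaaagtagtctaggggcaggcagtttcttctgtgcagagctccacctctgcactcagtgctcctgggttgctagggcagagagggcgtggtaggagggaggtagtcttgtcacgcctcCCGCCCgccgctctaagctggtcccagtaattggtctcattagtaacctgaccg
F11r: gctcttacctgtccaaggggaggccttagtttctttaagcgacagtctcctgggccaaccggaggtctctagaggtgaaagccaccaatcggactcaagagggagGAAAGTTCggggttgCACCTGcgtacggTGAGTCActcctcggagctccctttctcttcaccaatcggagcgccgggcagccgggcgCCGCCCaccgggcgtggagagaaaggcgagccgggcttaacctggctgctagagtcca
Pcdha4: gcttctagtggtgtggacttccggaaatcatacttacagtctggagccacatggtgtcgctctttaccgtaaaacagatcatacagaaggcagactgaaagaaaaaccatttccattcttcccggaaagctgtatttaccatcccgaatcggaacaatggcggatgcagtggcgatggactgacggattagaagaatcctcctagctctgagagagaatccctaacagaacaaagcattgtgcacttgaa
Pcdhb12: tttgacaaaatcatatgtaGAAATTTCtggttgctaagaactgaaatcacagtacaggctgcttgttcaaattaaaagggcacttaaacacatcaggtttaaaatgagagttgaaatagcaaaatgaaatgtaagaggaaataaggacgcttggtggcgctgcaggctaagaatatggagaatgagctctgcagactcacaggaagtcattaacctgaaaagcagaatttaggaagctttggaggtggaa

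The Cdhr1 sequence held a GC box (GGGCGG, read on the opposite strand) 54 bases before the start. The F11r sequence held a heat shock element core (GAANNTTC) 145 bases before the start, an E-box (CAGGTG, opposite strand) at 130, an AP-1 site (TGANTCA) at 117 and a GC box at 58. Pcdhb12 held a heat shock element core at 231 bases, and Pcdha4 held none of the motifs. Promoters were listed for 22 of the 38 measured genes. Among these 22 the heat shock core was in 3, the AP-1 site in 2, the antioxidant response element core (TGACNNNGC) in 3, the ATF4 core (TGATGNAA) in 1, the CRE (TGACGTCA) in 0, the E-box in 5, the GC box in 7 and the TATA box (TATAAA) in 2. Among all 27457 promoters of the same length, 7.02% held the heat shock core, 6.36% the AP-1 site, 10.2% the antioxidant core, 3.27% the ATF4 core, 1.70% the CRE, 15.6% the E-box, 32.4% the GC box and 13.1% the TATA box. Among the 4934 promoters of named genes measured here, the shares were 5.05, 5.45, 12.7, 2.17, 3.02, 14.8, 55.9 and 8.72% in the same order, so that the GC box was more frequent there than among the 22 (31.8%). A match is a run of letters and not evidence of binding.

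At 0.003% H2O2, 4 of 34 compared junction genes were higher by 2-fold or more (11.8%) and 9 were lower by as much (26.5%), where 17.5% of all features were higher and 14.2% lower, and 17.9 and 12.4% of named genes. At 0.006%, 4 of 32 were higher (12.5%) and 7 lower (21.9%), against 16.7 and 13.1% of all features and 16.0 and 9.5% of named genes. At 0.009%, 7 of 36 were higher (19.4%) and 6 lower (16.7%), against 19.0 and 9.27% of all features and 16.2 and 6.16% of named genes. Under the main scaling the share of junction genes that was lower lay above both backgrounds at each dose. The share that was higher lay below them at 0.003 and 0.006% and near that of all features at 0.009%. These shares rest on few genes, 9, 7 and 6 lower. At 0.009% the number lower ran from 3 with normexp to 20 with spike-ins. The median difference of the junction genes was -0.10, -0.12 and 0.04, beside 0.03, 0.03 and 0.14 over all features. Bounds made up 2, 1 and 5 of the genes counted as higher, and a gene detected on a dose array but not in the control could be counted as higher but not as lower.

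**Figure D1:**
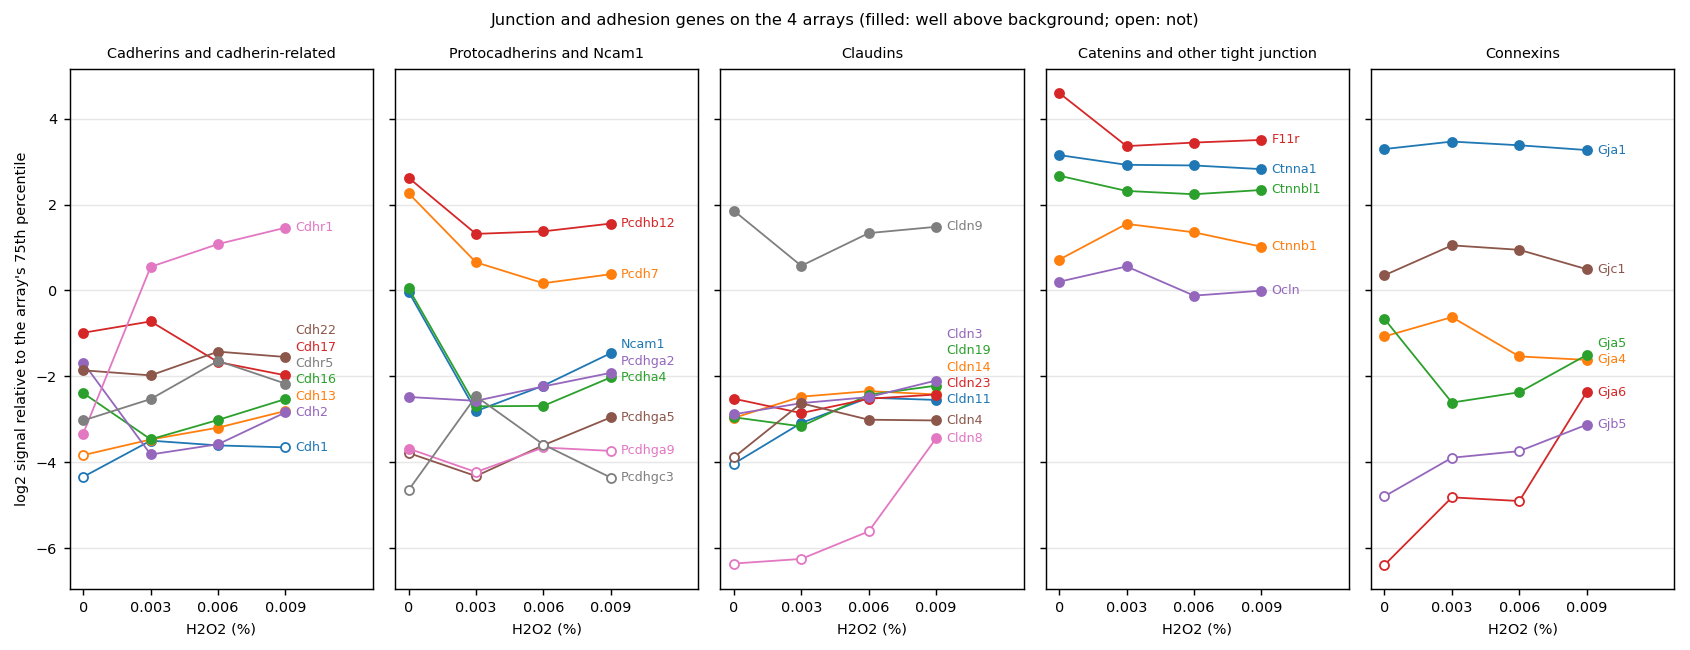
Log2 signal relative to each array's 75th percentile (vertical axis) of measured junction genes on the 4 arrays, ordered by H2O2 concentration in percent (horizontal axis), in 5 panels by family. Filled points were well above background and open points were not. Cdhr1 sits above its control value on every dose array, while Ncam1, Pcdha4, Pcdh7 and F11r sit below theirs.

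Among the cadherins, the photoreceptor cadherin Cdhr1 was far higher on every dose array and N-cadherin, Cdh2, was lower on every one. Cdhr1 was at 9.92, 146, 211 and 275% of the 75th percentile at 0, 0.003, 0.006 and 0.009% H2O2, and was well above background on all 4 arrays. These are differences of 3.88 ± 0.27, 4.41 ± 0.27 and 4.79 ± 0.27, or 14.8, 21.3 and 27.7-fold, with 2.77 at 0.009% as the smallest value there under any alternative. Cdhr1 is best known for its role in the outer segments of photoreceptors in the retina. Its signal was higher at each higher dose except with spike-in scaling, where the differences were 3.70, 3.87 and 3.62 and 0.009% stood at -0.08 against 0.003%. Under the main scaling the straight-line trend over dose did not pass (adjusted p = 0.309, limma).

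Cdhr5, a mucin-like cadherin of the brush border, was at 12.3, 17.3, 32.1 and 22.2%, the highest signal lying at 0.006%. There it was 2.62-fold higher (1.39 ± 0.26), short of 2-fold with spike-in scaling (0.85) and normexp (0.63), and at 0.009% the difference of 0.86 turned to -0.32 with spike-in scaling. Cdh2, which links proximal tubule cells to each other, was at 31.2, 7.08, 8.35 and 14.0%. It was 4.40, 3.73 and 2.23-fold lower at 0.003, 0.006 and 0.009% (-2.14 ± 0.12, -1.90 ± 0.12 and -1.16 ± 0.10). Its probe was printed in 10 spots on each array, whose SD on the log2 scale was 0.16 over the 9 spots kept at 0.009% and 0.10 over the 10 of the control. No spot at any dose reached the dimmest control spot, since the brightest dose spot was at -2.63 and the dimmest control spot at -1.87. With the normexp background, which adds an offset of 50, the differences of Cdh2 shrank to -0.62, -0.49 and -0.15. The part of the offset in this was not tested.

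Cdh16, a cadherin found mainly in kidney tubule epithelium, was at 19.1, 9.04, 12.4 and 17.3%. It was 2.11-fold lower at 0.003% (-1.08 ± 0.35) and at -0.63 and -0.14 at 0.006 and 0.009%. Normexp gave -0.16, 0.06 and 0.32, so that the 2-fold difference at 0.003% was lost. Cdh17, the liver-intestine cadherin, ran the other way over dose, at 50.5, 60.6, 31.5 and 25.4%, or 0.26, -0.68 and -0.99. The last was -1.55 with array medians, -2.17 with spike-ins, -1.18 with quantiles and -0.32 with normexp. E-cadherin, Cdh1, the cadherin of distal tubule and most other epithelia, was dim at 4.93, 8.85, 8.20 and 7.94%. It was well above background at 0.003 and 0.006% only, at least 1.79 and 1.66-fold higher than in the control, and has no fold at 0.009%. Cdh13, a GPI-anchored cadherin with no cytoplasmic tail, was at 7.01, 9.02, 10.9 and 14.3%, the last at least 2.04-fold higher. That call was lost under 6 of 7 alternatives, at 0.47 with array medians and with the deposited table, 0.46 with quantiles, 0.60 with normexp and with no value left under spike-ins or when both arrays had to be above background. Cdh22 was at -0.12, 0.43 and 0.31, within 2-fold of the control, and its last difference turned to -0.87 with spike-in scaling and -0.25 with array medians. Cdh6, the other main proximal tubule cadherin, was not well above background on any array.

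Protocadherins, a large family without the catenin-binding tail of classical cadherins and best known in the nervous system, held 3 of the 6 genes that were at least 2-fold lower at 0.009%. Pcdh7 was at 480, 157, 112 and 130% of the 75th percentile. It was 3.05, 4.28 and 3.70-fold lower at 0.003, 0.006 and 0.009% (-1.61 ± 0.20, -2.10 ± 0.21 and -1.89 ± 0.21). Pcdh7 is a non-clustered protocadherin, encoded by a gene of its own.

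Pcdhb12, of the beta cluster, was at 616, 249, 259 and 294%, or 2.47, 2.38 and 2.09-fold lower. Each beta gene is a single exon, so that its transcript shares no exon with its neighbours. Pcdha4, of the alpha cluster, was at 103, 15.4, 15.5 and 24.6%, or 6.72, 6.67 and 4.21-fold lower (-2.75 ± 0.25, -2.74 ± 0.27 and -2.07 ± 0.24). Transcripts of the alpha cluster, like those of the gamma cluster, join a gene's own first exon to shared last exons. The place of the probe in the transcript is not given in the sources used here, so the Pcdha4 signal may be that of several alpha genes.

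Genes of the gamma cluster were dim and, where they could be compared, mostly within 2-fold of the control. Pcdhga2 was at 17.9, 16.8, 21.2 and 26.4%, within 2-fold of the control at each dose, and its difference of 0.56 at 0.009% turned to -0.61 with spike-in scaling. Pcdhgc3 was well above background at 0.003% only, at least 4.55-fold higher than in the control. That call was lost with normexp, at 0.41 in place of 2.18 on the log2 scale, and when both arrays had to be above background. Pcdhga5 was at least 1.77-fold higher at 0.009%, and Pcdhga9 was above background in the control only. These 3 genes were seen on 1 array each and their signals, up to 18.1% of the 75th percentile, were dim.

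Ncam1, an immunoglobulin adhesion molecule that cells of the developing kidney and neurons carry, was, with Pcdha4, the gene furthest below the control at 0.003%. It was at 97.9, 14.2, 21.5 and 36.3% of the 75th percentile, on a probe with 10 spots. It was 6.87, 4.56 and 2.70-fold lower at 0.003, 0.006 and 0.009% (-2.78 ± 0.08, -2.19 ± 0.08 and -1.43 ± 0.07), and no dose spot, the brightest at -1.27, reached the dimmest control spot at -0.15. The signal was lowest at 0.003% and closer to the control at each higher dose.

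The 3 fibroblast markers measured, of 8 listed, had the same order over dose as Ncam1 and Cdh2. Col1a2 was at -1.96, -1.35 and -0.51, Col3a1 at -1.74, -1.22 and -0.70, and Pdgfrb at -2.17, -1.69 and -0.92. Their summed signal was 3199, 920, 1322 and 1962% of the 75th percentile, while the defining fibroblast markers Dcn and Lum were not well above background on any array. The neuronal markers Map2, Snap25 and Syt1 were each well above background on 1 array only. Of the tubule markers, Aqp1 and Cdh16 had that order as well, Aqp1 at -2.11, -1.85 and -1.33, whereas Krt18 was 4.65, 6.76 and 8.55-fold higher. Krt19 was at -0.26, 1.01 and 1.64 and Krt8 at -0.09, -0.44 and -0.68. These orders are those of the main scaling. With spike-ins Ncam1 kept its order, at -2.97, -2.73 and -2.61. Cdh2 was then at -2.32, -2.44 and -2.33 and Cdh16 at -1.26, -1.17 and -1.31. At 0.009% spike-ins put Aqp1 at -2.50 and Col1a2, Col3a1 and Pdgfrb at -1.69, -1.87 and -2.09. The part of other cell types in the Ncam1 and Cdh2 values was not tested.

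**Figure D2:**
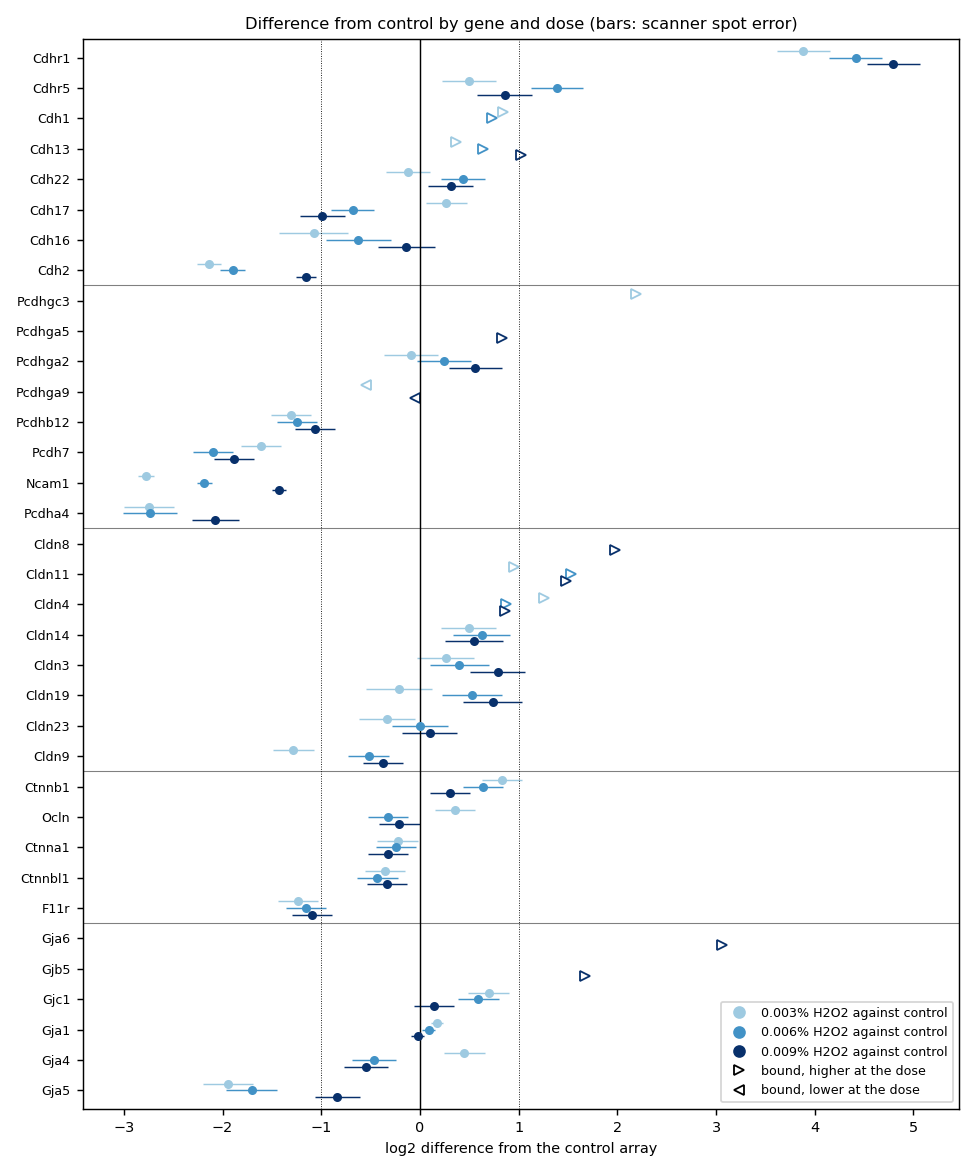
Log2 difference from the control array (horizontal axis, dotted lines at 2-fold) for measured genes (rows, grouped by family) at 3 doses of H2O2. Points carry the scanner's spot error as bars, and open triangles are bounds. Cdhr1 lies between 3.88 and 4.79, Ncam1 and Pcdha4 lie furthest to the left, and the catenins stay inside the 2-fold lines.

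The catenins stayed within 2-fold of the control at every dose, except that spike-in scaling, which lowered the median of all features to -1.05 at 0.009%, put Ctnna1 at -1.50 and Ctnnbl1 at -1.51 there. Ctnna1, alpha-catenin, which couples the cadherin complex to actin, was at 888, 759, 751 and 708% of the 75th percentile, or -0.23, -0.24 and -0.33 (± 0.20). Ctnnb1, beta-catenin, which binds cadherin tails and also acts in WNT signalling, was at 164, 293, 255 and 202%, or 0.83, 0.64 and 0.30. Its last difference turned to -0.26 with array medians and -0.87 with spike-in scaling, and a second Ctnnb1 probe gave 0.37, 0.09 and 0.05. Ctnnbl1 shares the prefix but encodes a nuclear protein of the splicing machinery, and was at -0.36, -0.43 and -0.33.

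Among the tight junction genes outside the claudins, F11r was lower at every dose, while Ocln stayed within 2-fold except with spike-in scaling at 0.009%, at -1.38. F11r encodes JAM-A, an immunoglobulin protein at the tight junction, and its probe was at 2421, 1026, 1087 and 1134% of the 75th percentile. It was 2.36, 2.23 and 2.13-fold lower at 0.003, 0.006 and 0.009% (-1.24, -1.16 and -1.09, each ± 0.20), close to the same at each dose, and at least 2-fold lower under all 7 alternatives, which ranged at 0.009% between -2.27 and -1.09. Occludin, Ocln, was at 115, 147, 91.9 and 99.6%, or 0.36, -0.32 and -0.21, and its second probe was at 0.90, 0.12 and 0.11. The Ocln probes thus differed in sign at the higher doses.

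Of 8 measured claudins, Cldn9 alone was lower by 2-fold at any dose, joined with spike-in scaling by Cldn23 at 0.009% (-1.08), and those that were higher rested mostly on bounds from dim probes. Cldn9, known from the neonatal tubule and inner ear, was at 362, 149, 252 and 279%, or 2.43-fold lower at 0.003% (-1.28 ± 0.20) and at -0.52 and -0.37 at 0.006 and 0.009%. The 2-fold difference at 0.003% held under all 7 alternatives. Cldn4, a claudin of the collecting duct, was at 6.76, 16.2, 12.4 and 12.3% and not well above background in the control. It was at least 2.39, 1.84 and 1.81-fold higher at 0.003, 0.006 and 0.009%. The call at 0.003% was lost with normexp (0.38) and when both arrays had to be above background. At 0.009% the Cldn4 bound was 0.30 with array medians and 0.23 with quantiles, with no value left under spike-ins. Cldn11, which forms tight junctions in myelin and the testis, was at 6.11, 11.8, 17.7 and 17.1%, at least 1.93, 2.90 and 2.80-fold higher. At 0.009% this fell short of 2-fold under the same 6 of 7 alternatives as for Cdh13, at 0.94 with quantiles, 0.92 with array medians, 0.61 with normexp and 0.31 with spike-ins. Cldn8, which works with Cldn4 in the distal nephron, was above background at 0.009% only, at least 3.94-fold higher (0.80 on the log2 scale with spike-ins and 0.66 with normexp), with an unscaled signal of 11.1 there and 2.20 in the control.

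The other claudins were within 2-fold at each dose, with that exception for Cldn23. Cldn3 was at 13.5, 16.2, 17.9 and 23.3%, or 0.26, 0.40 and 0.79, with spike-in scaling turning the last to -0.39. Cldn14 and Cldn19, claudins of the thick ascending limb, were at 0.49, 0.62 and 0.55 and at -0.21, 0.52 and 0.74, and spike-in scaling turned both at 0.009%, to -0.63 and -0.44. Cldn23 was at -0.33, 0.00 and 0.10, the last turning under quantile, array median and spike-in scaling. Dim probes as a whole had higher scaled values at the higher doses. The 15833 probes never well above background had median differences of 0.12, 0.49 and 0.58, and the 27 such probes of junction genes 0.13, 0.52 and 1.16. The part of this shift in the bounds at 0.009% was not tested.

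Connexins showed no common direction. Gja1, the most widespread connexin, was at 979, 1104, 1040.1 and 963% of the 75th percentile, or 0.17, 0.09 and -0.02 (± 0.06 over 10 spots), within 2-fold except at 0.009% with spike-in scaling (-1.20). The spots of the 4 arrays overlapped in part, with SDs of 0.06 at 0.009% and 0.04 in the control. Gja5, known from arteries and the heart's conduction system, was at 63.0, 16.4, 19.3 and 35.3%, or 3.85, 3.26 and 1.79-fold lower (-1.94 ± 0.25, -1.71 ± 0.26 and -0.84 ± 0.22). Normexp put Gja5 short of 2-fold at each dose, at -0.94, -0.80 and -0.28. At 0.009% array medians gave -1.40 and spike-ins -2.01. Gja4, another vascular connexin, was at 47.6, 65.0, 34.4 and 32.6%, or 0.45, -0.47 and -0.55. The last was -1.11 with array medians, -1.72 with spike-ins and -0.19 with normexp. Of the endothelial markers with a probe, Kdr was measured, at 0.92, 1.20 and 1.59, while Pecam1, Cldn5 and Emcn were not well above background on any array.

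Gjb5, a connexin of skin and placenta, and Gja6, a connexin of the testis in rodents, were above background at 0.009% only, at least 3.18 and 8.32-fold higher. The Gjb5 bound fell short of 2-fold with quantiles, spike-ins and normexp, at 0.90, 0.49 and 0.59. The unscaled signal of Gja6 was 23.5 at 0.009% and 2.15 in the control, and normexp gave a difference of 0.89 in place of 3.06. Gjc1, a connexin of the developing heart and vessels, was at 0.70, 0.59 and 0.14, the last turning to -0.42 with array medians and -1.03 with spike-ins.

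Between the doses, 0.009% was set against 0.003% without the control array. Of 37 genes, 4 were at least 2-fold higher at 0.009% (10.8%), namely Ncam1, Gja5 and, as bounds, Gja6 and Pcdhga5, where 14.3% of all features and 10.4% of named genes were higher. The 2 that were lower (5.41%) were Cdh17 and, as a bound, Pcdhgc3, where 7.27% of all features and 6.71% of named genes were lower. The median over the junction genes was 0.36, with 24 above 0 and 13 below. Over all 22447 features it was 0.16, with 12895 above 0 and 9552 below. With spike-ins 18 of 35 junction genes changed sign. Ncam1 was at 36.3% at 0.009%, against 14.2% at 0.003%, a difference of 1.35. Gja5 was 2.16-fold higher (1.11), and Cdh2, Cdh16 and Cldn9 stood at 0.98, 0.94 and 0.91. Gja5 stayed at least 2-fold higher under 2 of 7 alternatives, Ncam1 under 3, Gja6 under 4 and Pcdhga5 under 1. Cdh17 was 2.39-fold lower.

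How far these values go depended on the scaling. Spike-in scaling moved the median of all features at 0.009% against the control by -1.19, array medians by -0.56 and quantile normalization by -0.16, and at 0.009% against 0.003% spike-ins moved it by -1.01. With spike-ins, Ncam1, Gja5 and Cdh2 at 0.009% against 0.003% were at 0.36, 0.12 and -0.01. The junction genes' median at 0.009% against the control was then -1.23, and that of all features -1.05. Of the genes at least 2-fold from the control at all 3 doses, Cdhr1 above and F11r, Pcdh7 and Pcdhb12 below remained so under all 7 alternatives. Ncam1 and Pcdha4 missed 2-fold only at 0.009% with normexp, at -0.75 and -0.94.

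**Figure D3:**
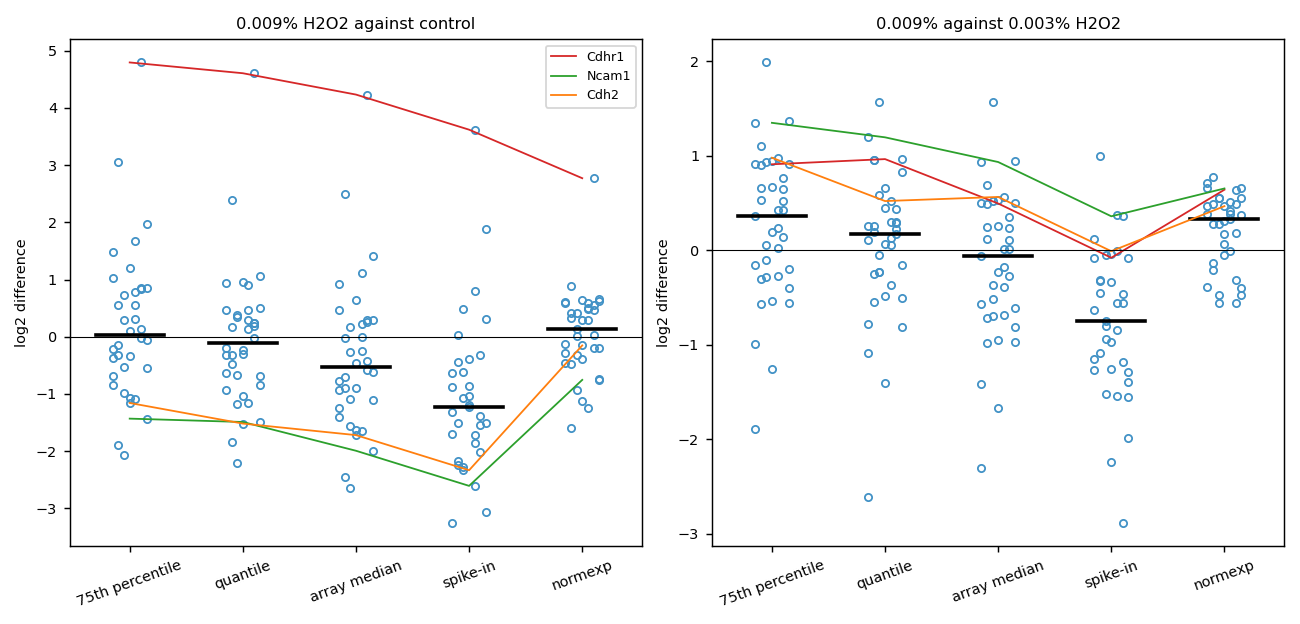
Log2 differences of the measured junction genes (circles) and their median (black bar) under the main scaling and 4 alternatives (horizontal axis), for 0.009% H2O2 against control (left) and 0.009% against 0.003% H2O2 (right). Lines join Cdhr1, Ncam1 and Cdh2. The median at 0.009% against control is 0.04 with the 75th percentile and -1.23 with spike-ins, while Cdhr1 is at least 2.77.

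A straight-line trend over dose was the only test the design allowed, with 4 arrays and 2 residual degrees of freedom. None of the 38 genes passed it in limma after Benjamini-Hochberg adjustment, and the lowest adjusted p was 0.260, of Gja6. Over all 23787 features, 0 (0.0%) passed after adjustment and 3270 (13.7%) had an unadjusted p under 0.05. Unadjusted, 6 of the 38 did, namely Gja6, Gjb5, Cldn8, Cdhr1, Cldn11 and Cdh13, all with a positive slope, and 5 of these were not well above background in the control.

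Other genes of the same junctions were taken from lists outside the families above, and their counts stand beside the 17.5, 16.7 and 19.0% of all features that were higher and the 14.2, 13.1 and 9.27% that were lower. With 1 to 10 genes measured in a list, counts of 1 or 2 are too small to be set apart from these shares. Of 14 further adherens junction genes 6 were measured, of which 1, 1 and 0 were at least 2-fold lower over the doses and 0 higher. Nectin2, an immunoglobulin adhesion molecule of the adherens junction, was at -2.16, -1.36 and -0.92, the actin cross-linker Actn4 at -0.66, -0.75 and -0.66, and Afdn, which ties nectins to actin, at -0.37, -0.57 and -0.36. Under the main scaling Nectin2 thus had its lowest value at 0.003%, the dose at which Cdh2, Ncam1 and Gja5 were lowest too. With spike-ins Cdh2 and Gja5 were lowest at 0.006%, at -2.44 and -2.25. Of 13 desmosome genes only Jup, plakoglobin, was measured, at 0.502, 0.507 and 0.581 times its control signal.

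Of 22 tight junction scaffold and polarity genes 10 were measured, of which 1, 0 and 1 were at least 2-fold lower, where 14.2, 13.1 and 9.27% of all features were, and 0 higher. The scaffold Magi3 was at -0.76, -0.96 and -1.11, the polarity protein Pard3 at -0.32, -0.42 and -0.59, and Ybx3, a DNA-binding protein that zonula occludens proteins hold, at 0.61, 0.69 and 0.58, with -0.59 under spike-in scaling at 0.009%. Of 11 repressors of cadherin genes and cadherin-cleaving enzymes 8 were measured. Of these 1, 2 and 1 were at least 2-fold higher, where 17.5, 16.7 and 19.0% of all features were, and 1, 0 and 0 lower. Snai1, a repressor of the E-cadherin gene, was at 0.81, 1.04 and 1.01, and the last turned to -0.17 with spike-in scaling. The sheddase Adam17 was at 0.51, 0.45 and 0.28, with -0.89 under spike-in scaling at 0.009%.

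Targets and feedback genes of beta-catenin were read beside Ctnnb1, and 3 of 12 were measured. Of these 1, 1 and 1 were at least 2-fold higher over the doses and 2, 1 and 1 lower. Among all features 17.5, 16.7 and 19.0% were higher and 14.2, 13.1 and 9.27% lower. Myc, a growth regulator with many inputs, was at 2.73, 3.06 and 2.98, while cyclin D1, Ccnd1, was at -1.03, -0.83 and -0.48. Axin2, the feedback inhibitor of WNT signalling, was at -1.31 at 0.003% and, as bounds, at -1.59 and -1.49 above that, and normexp put it at 0.00 at 0.009%. These 3 genes did not share a direction. Of 19 other large cadherins and gap junction relatives 5 were measured, of which 1, 0 and 0 were at least 2-fold higher and 0, 1 and 1 lower. Panx1, a channel that releases ATP, was at 1.26, 0.28 and -0.51, lower at each higher dose. The large cadherin Celsr3 was at 0.18 at 0.003%, at -0.08 as a bound at 0.006% and at 0.70 at 0.009%, the last being -0.47 under spike-in scaling, and Fat2, above background in the control only, at -0.91, -1.69 and -1.01 as bounds.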

How the data were processed

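Total RNA of NRK-52E cells was labelled with Cy3 and hybridised to Agilent arrays (design 014879, annotated on rn4), 1 per dose, per the labels and file headers. The deposited signal of a spot is, per the file headers, an intensity on a linear scale from Agilent Feature Extraction 10.7.3.1 (protocol GE1_107_Sep09), with background subtraction and a spot error in the same intensity unit. The authors' deposited table of values is a ratio on a linear scale, equal in 100% of probes, within 1e-06, to the probe's mean signal over the array median, and was used as an alternative.

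Outlier spots were left out, log2 signals of a probe's spots averaged and the array's 75th percentile (noncontrol spots, log2) subtracted. Of 41012 probes, 10825 (26.4%) were named through RefSeq accessions in a table on GRCr8. Each gene was read from 1 probe, the brightest of those that passed detection on any array, and unnamed probes were kept as features (23787 features in all). A difference used features well above background on either array, and the dim side was set to the higher of its value and the array's lowest signal well above background.

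The trend over dose used limma 3.58.1 in R 4.3.3, checked on simulated data, with a threshold of 0.05. Other steps used Python 3.11.15. Alternatives were array medians, spike-ins (7 probes), quantile normalization, normexp (offset 50), the deposited table, the mean of a gene's probes, probes well above background on both arrays, and 1.5-fold. Normexp used median rather than mean spot signals, the column in the files. Precision is limited by having 1 array per dose. The genes, lists and sequences were chosen with earlier results of these data known. Any of the 38 genes could be named, and other genes named were the 3 with the largest difference at 0.009% in each list, and Hmox1. A few genes are counted but not reported here by name. Of 146 symbols of these families in the name table, those without a named probe were not analysed here.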

Additional observations from a re-analysis of the deposited data

Results flagged for a closer look

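Second probes of 2 genes, used only in the alternative that averaged a gene's probes, were well above background at 0.003% H2O2 only, above the control array. The second Cldn4 probe was at least 4.69 higher on the log2 scale than in the control, with log2 signals of -0.74 at 0.003% and -6.09 in the control, while the probe used above was at least 1.26 higher. The second Pcdhgc3 probe was at least 1.08 higher, at -3.26 against -4.34 in the control, while the probe used was at least 2.18 higher. Averaging each gene's probes put Cldn4 at 3.31 and Pcdhgc3 at 1.63 at 0.003%.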

How the results depend on the processing

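No paired analysis was possible because each dose had 1 array and the labels give no replicate numbers. Counts at 0.003% against control moved to 1 gene higher with normexp, 2 with probes above background on both arrays and 8 at 1.5-fold. At 0.006%, 1 gene was higher with spike-ins and with normexp and 10 at 1.5-fold, 13 were lower with spike-ins, and the median was -0.54 with spike-ins and -0.38 on both arrays. At 0.009%, 4 were higher with array medians and with the deposited table, 3 with quantiles, 2 with spike-ins and on both arrays, 1 with normexp and 12 at 1.5-fold. There, 11 were lower with array medians and with the deposited table, 20 with spike-ins and 3 with normexp. The median of all features at 0.009% was -0.42 with array medians and the deposited table, -1.05 with spike-ins and 0.21 with normexp. The shares of all features past 2-fold under these alternatives are not given here. The junction genes' median at 0.009% was -0.53 with array medians, -0.52 with the deposited table, -1.23 with spike-ins and -0.27 on both arrays. For 0.009% against 0.003%, 1 was higher with array medians and with the deposited table, 2 with quantiles and on both arrays, 0 with spike-ins and normexp and 14 at 1.5-fold, while 13 were lower with spike-ins, 0 with normexp and 1 on both arrays. That median was -0.056 with array medians and the deposited table and -0.75 with spike-ins. Probes above background on both arrays drop every bound by construction, and the cause of the other shifts was not tested. The trend called 0 genes under the main scaling and under each of the 7 alternatives it was run on. Sign changed in 9 of 33 genes at 0.009% against control with spike-ins, and in 1 of 36 with quantiles. At 0.009% against 0.003% it changed in 18 of 35 with spike-ins. Signal near background limits the bounds of Cdh13, Cldn4, Cldn8, Cldn11, Gja6, Gjb5, Pcdhga5 and Pcdhgc3.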
